A study of Rattus norvegicus with 9 samples.

Results

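The genes described here handle haem and iron: Hmox1, Hmox2, Blvrb, Fth1, Ftl1, Tfrc, Slc40a1 and Cp. They were chosen by symbol as a functional group, with earlier results of these data known. All 8 symbols were found in the deposited gene tables, as 9 of 22050 gene identifiers because Slc40a1 has a second identifier. RNA was sequenced from 9 libraries of cortical neurons cultured from Sprague Dawley rat embryos at embryonic day 19 (E19), with 3 libraries per group. The control libraries were labelled untreated. The OGD libraries came from cells kept at 1% oxygen without glucose or pyruvate for 4.5 h (oxygen-glucose deprivation, an in vitro model of ischaemia) and then returned to normoxia in regular medium. The third group went through OGD and normoxia with 100 ng/ml Wnt3a, a Wnt ligand, and 50 ng/ml Rspondin 1, a secreted amplifier of Wnt signalling, and the labels give 24 h for that treatment. How long the OGD group stayed in normoxia before collection is not stated in the labels. The labels do not say whether the 3 libraries of a group came from separate cultures or litters, so the p-values measure the spread between these libraries, which may be technical. The question of the study, per its design text, is which genes Wnt3a with Rspondin 1 regulates in neurons under OGD.

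Haem is an iron-containing porphyrin that haem oxygenases open to biliverdin, carbon monoxide and free iron, and biliverdin reductases then make bilirubin. Cells take up iron through the transferrin receptor, keep the surplus in ferritin shells built of heavy and light chains, and export it through ferroportin with the help of copper ferroxidases such as ceruloplasmin. When iron is plentiful, iron regulatory proteins release the transcripts of ferritin and transferrin receptor, which raises ferritin translation and destabilises the receptor transcript. In brain, neurons carry transferrin receptor and the constitutive haem oxygenase, while glia hold much of the ferritin and the membrane-bound form of ceruloplasmin.

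All 8 genes changed between control and OGD. Hmox1, the inducible haem oxygenase, Cp, a ferroxidase, and Slc40a1, the iron exporter ferroportin, rose by 2.04 ± 0.07, 1.99 ± 0.16 and 2.01 ± 0.29 on the log2 scale (± SE). The ferritin chains Fth1 and Ftl1 and the biliverdin reductase Blvrb rose, whereas Tfrc, the transferrin receptor, and Hmox2, the constitutive haem oxygenase, fell, the latter with a call that some alternatives lost. With Wnt3a and Rspondin 1 added, no gene of the 8 differed from OGD alone at an adjusted p under 0.05. Adjusted p-values here and below are those of the quasi-likelihood test in edgeR, corrected by Benjamini-Hochberg over 13693 genes. Levels are FPKM, fragments scaled by transcript length and library size, which permits comparison between genes.

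In OGD against control, 8 of the 8 genes passed the test, where 73.1% of all tested genes did. Of the 8, 6 were higher, against 36.3% of all genes, and 2 were lower, against 36.8%. At least 2-fold higher and past the test were 5 of the 8, against 14.2% of all genes. The 8 genes were chosen with earlier results of these data known, so these shares give scale and do not measure an excess. The FPKM values of the control and OGD libraries overlapped for none of the 8, and the share of all genes whose TMM-scaled libraries did not overlap was 75.1%, so a call or a lack of overlap alone sets none of these genes apart. The median change was 0.02 over all genes. In the low-count filter 7 of the 8 genes passed the level of 0.588 CPM (counts scaled by library size) in all 9 libraries, and Slc40a1 passed it in 2 of 3 control libraries and in every other library. Depth was 14285914 to 25048521 counts per library.

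Markers of cell types moved in the same comparison. The 12 neuron markers all fell, with a median of -2.63, and their summed level went from 2895 to 3033 FPKM in control to 510 to 683 FPKM in OGD. Of 11 astrocyte markers 10 rose, with a median of 1.22, and their sum went from 2515 to 2685 FPKM to 6719 to 7338 FPKM. All 8 tested microglia and macrophage markers of 14 listed rose, with a median of 2.22, from a summed 4.15 to 6.40 FPKM to 24.05 to 26.60 FPKM. The oligodendrocyte lineage list had 6 genes higher and 3 lower of 11, with sums of 436 to 523 FPKM in control and 1104 to 1113 FPKM in OGD. Mural cell and fibroblast markers had 3 higher and 2 lower of 8 tested, and Tagln, at 96.8 FPKM in control and 749 FPKM in OGD, made up most of their summed level in both groups (92.9 to 116 and 671 to 884 FPKM). Pdgfrb and Acta2 of that list also rose. The fibroblast genes Dcn and Lum fell from a low 1.16 and 0.88 FPKM in control, with at most 48 and 59 reads per library. Col1a1, Col3a1 and Vtn were not past the test. In these bulk libraries, fewer cells of a type and less RNA per cell cannot be told apart, and the part of cell makeup in the changes of the 8 genes was not tested. RNA of red blood cells, a rich source of haem, was scarce: Alas2, the erythroid enzyme of haem synthesis, had 0 reads in every library, and the globin genes Hba-a2 and Hbb had at most 71 and 43 reads.

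The start regions of 3 of these genes are shown, and any link between their motifs and the direction of change was not tested. RefSeq windows on the GRCr8 build were matched by symbol for 5 of the 8 genes. Hmox1, Fth1 and Ftl1 had none. Each run gives the 250 bases before the annotated start, 5′ to 3′ on the gene's strand. Capitals mark matches on either strand to the antioxidant response element core TGANNNNGC, the hypoxia response element core ACGTG or GCGTG, the TCF/LEF core CTTTGA bound by the Wnt effector factors, the metal response element core TGCACNC, or TATAAA.
Tfrc, chr11:81690319-81690568, minus strand: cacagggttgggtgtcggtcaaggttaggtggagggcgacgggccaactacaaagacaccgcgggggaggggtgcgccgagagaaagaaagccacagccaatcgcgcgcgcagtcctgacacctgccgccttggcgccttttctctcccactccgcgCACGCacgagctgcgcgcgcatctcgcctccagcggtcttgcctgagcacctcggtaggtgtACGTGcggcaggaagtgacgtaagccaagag
Blvrb, chr1:91866008-91866257, plus strand: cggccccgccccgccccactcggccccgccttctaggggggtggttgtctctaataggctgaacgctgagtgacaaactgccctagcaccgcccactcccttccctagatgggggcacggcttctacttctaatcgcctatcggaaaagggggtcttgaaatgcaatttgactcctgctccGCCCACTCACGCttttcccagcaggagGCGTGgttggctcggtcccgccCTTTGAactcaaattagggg
Cp, chr2:104368420-104368669, plus strand: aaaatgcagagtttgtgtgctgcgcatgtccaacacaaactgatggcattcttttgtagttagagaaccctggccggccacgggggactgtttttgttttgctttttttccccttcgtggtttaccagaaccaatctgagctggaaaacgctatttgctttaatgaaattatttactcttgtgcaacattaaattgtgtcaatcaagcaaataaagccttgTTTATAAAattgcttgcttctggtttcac

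Counted from the start, with -1 as the base just before it, the Tfrc window had hypoxia core matches whose first bases lay at -93 and -31 and no antioxidant core. The Blvrb window had an antioxidant core at -69, which overlaps a hypoxia core at -62, another hypoxia core at -42 and a TCF/LEF core at -20. The Cp window held a TATA match on both strands, at -29 and -27, and none of the other motifs. The Slc40a1 window held none of the 5 motifs. Hmox2 had 2 windows, 1 with no match and 1 with an antioxidant core at -95 and 4 hypoxia cores. Such short motifs are frequent. Among 33469 windows of 300 bases, longer than the 250 bases shown above, 40.5% held the antioxidant core and 41.6% a hypoxia core. CTTTGA stood in 16.1%, the metal core in 12.2% and TATAAA in 14.2%. A match describes the letters in a window and is not evidence of binding.

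Hmox1 (ENSRNOG00000014117) stood at 38.73, 39.24 and 37.73 FPKM in the control libraries. It stood at 169.45, 161.07 and 172.98 FPKM after OGD and at 156.98, 158.51 and 162.79 FPKM with Wnt3a and Rspondin 1. The libraries of each group lay close together, every OGD library was above every control library, and the OGD and Wnt3a libraries overlapped. In OGD against control the rise was 4.10-fold (adjusted p = 2.39e-10), and 296 of the 13693 tested genes had a larger log2 change. By mean FPKM, Hmox1 moved from rank 2539 of all 22050 identifiers in control to rank 464 in OGD.

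Hmox2 (ENSRNOG00000003773), which breaks down haem under basal conditions, stood at 26.33, 26.42 and 26.06 FPKM in control and 24.22, 23.82 and 23.08 FPKM in OGD. With Wnt3a and Rspondin 1 it stood at 23.76, 21.40 and 22.33 FPKM. All OGD libraries were just below all control libraries, and the fall was -0.23 ± 0.08 on the log2 scale (adjusted p = 0.0156). This call depended on the processing: with library totals in place of TMM scaling the change was -0.15 (adjusted p = 0.0884), without control replicate 2 it was -0.22 (adjusted p = 0.0571) and without OGD replicate 3 it was -0.20 (adjusted p = 0.0587). Within a library the level of Hmox1 was 1.47 ± 0.02 times that of Hmox2 in control (SD, n = 3), 7.08 ± 0.37 times in OGD and 7.10 ± 0.43 times with Wnt3a and Rspondin 1. The ratios of control and OGD libraries did not overlap, at the smallest p that 3 against 3 libraries allow (exact two-sided permutation test, p = 0.1, 0.2 adjusted over the 8 ratio comparisons made).

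Blvrb (ENSRNOG00000024410), a flavin and biliverdin reductase, stood at 46.38, 47.68 and 39.64 FPKM in control and 107.12, 89.01 and 83.23 FPKM in OGD. With Wnt3a and Rspondin 1 it stood at 87.41, 87.88 and 79.85 FPKM. No OGD library overlapped a control library, and OGD replicate 1 was the highest of all. The rise after OGD was 1.97-fold, or 0.98 ± 0.11 on the log2 scale (adjusted p = 3.47e-06), and 0.86 ± 0.09 without OGD replicate 1. Blvra, which encodes the other biliverdin reductase, was not past the test, at 13.0 ± 0.85 FPKM in control and 13.9 ± 1.0 FPKM in OGD (SD, n = 3), a log2 change of 0.02 ± 0.10 (adjusted p = 0.871).

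**Figure D1:**
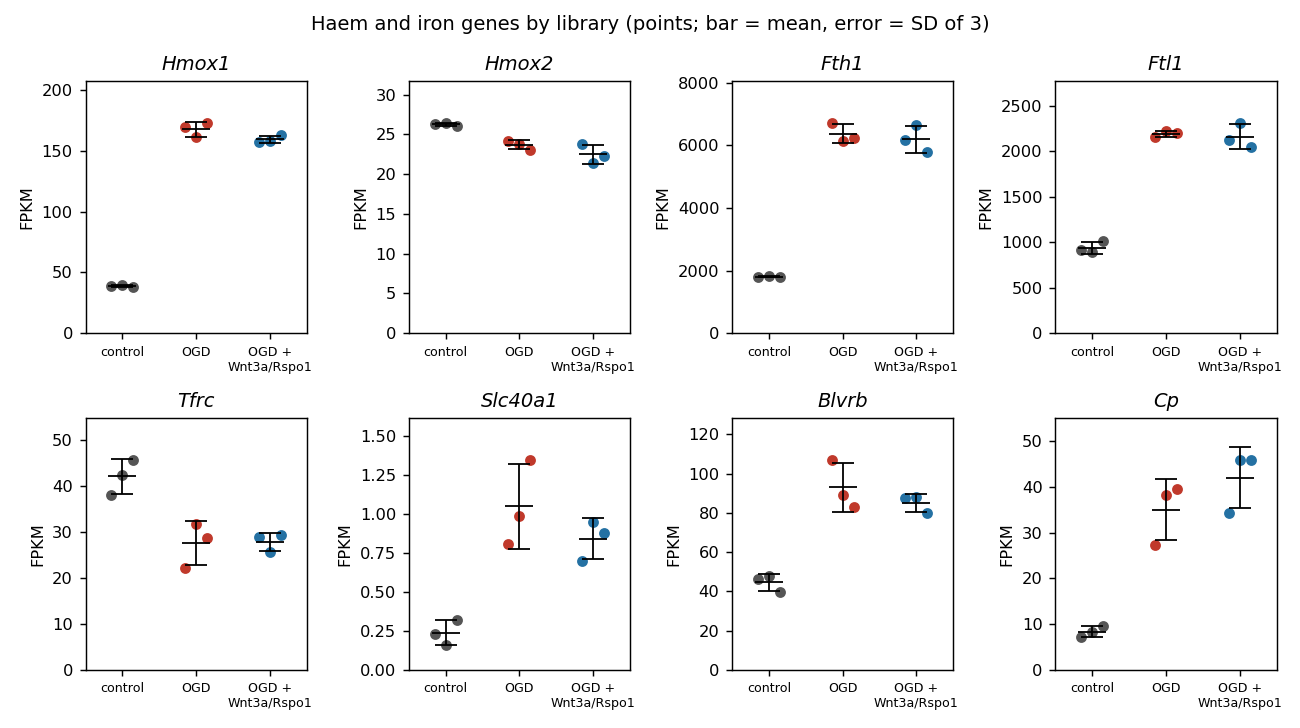
Level of each of the 8 genes in FPKM (vertical axis, from 0, with its own scale per gene) in the 3 control, 3 OGD and 3 OGD with Wnt3a and Rspondin 1 libraries. Points are libraries, horizontal bars are means and error bars are SD of 3; the OGD libraries lie above the control libraries for 6 genes and below them for Hmox2 and Tfrc, and the blue points lie at about the height of the red ones.

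Fth1 (ENSRNOG00000022619), the ferritin heavy chain with ferroxidase activity, stood at 1788.99, 1818.73 and 1794.57 FPKM in control. It stood at 6717.30, 6152.68 and 6237.12 FPKM in OGD and at 6189.54, 6643.38 and 5776.74 FPKM with Wnt3a and Rspondin 1. Fth1 was already abundant in control, at rank 15 of all identifiers by mean FPKM, and was at rank 4 in both OGD groups. The rise after OGD was 3.33-fold, 1.74 ± 0.08 on the log2 scale (adjusted p = 1.02e-09).

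Ftl1 (ENSRNOG00000031506), the ferritin light chain that aids iron core formation, stood at 909.27, 893.83 and 1007.80 FPKM in control and 2157.58, 2219.90 and 2201.83 FPKM in OGD. With Wnt3a and Rspondin 1 it stood at 2123.98, 2311.85 and 2048.21 FPKM. The groups with OGD were above control in every library, and the rise was 2.21-fold, 1.14 ± 0.07 on the log2 scale (adjusted p = 1.65e-08). Its level is uncertain because a near copy, LOC100360087, annotated as ferritin light chain 1-like, took 23.05% to 27.89% of the reads on the pair and itself rose by 1.19 ± 0.10 (adjusted p = 1.66e-07). With the reads of both summed, a choice made after the data were seen, the change was 1.15. Ftmt, mitochondrial ferritin, had 0 reads in every library.

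The log2 change of the heavy chain was larger than that of the light chain. The ratio of Fth1 to Ftl1 levels was 1.97, 2.04 and 1.78 in control, 3.11, 2.77 and 2.83 in OGD and 2.91, 2.87 and 2.82 with Wnt3a and Rspondin 1. By the difference of mean log2 ratios it was 1.51-fold higher in OGD than in control with no overlap (exact two-sided permutation test, p = 0.1, the smallest possible, 0.2 adjusted). This ratio takes Ftl1 alone as the light chain and leaves out LOC100360087. That near copy stood at 506.17, 474.26 and 503.39 FPKM in control and 1372.65, 1093.89 and 1129.80 FPKM in OGD. A ratio with both light chain genes was not computed. Together Fth1, Ftl1 and LOC100360087 took 0.258% to 0.268% of all counts in control, 0.773% to 0.829% in OGD and 0.728% to 0.834% with Wnt3a and Rspondin 1.

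Tfrc (ENSRNOG00000001766), through which cells take up transferrin-bound iron, stood at 38.11, 42.51 and 45.74 FPKM in control. It stood at 22.26, 31.75 and 28.63 FPKM in OGD and at 28.83, 25.66 and 29.24 FPKM with Wnt3a and Rspondin 1. The highest OGD library was below the lowest control library, and OGD replicate 1 was the lowest of all 9. The fall was -0.70 ± 0.11 on the log2 scale, or 1.62-fold (adjusted p = 9.2e-05), and -0.57 ± 0.09 without OGD replicate 1. Relative to Fth1, the level of Tfrc was 5.45-fold lower in OGD than in control by the difference of mean log2 ratios. The ratios did not overlap (exact two-sided permutation test, p = 0.1, 0.2 adjusted). On the plain scale the mean ratio was 0.0234 ± 0.0021 in control and 0.00436 ± 0.00095 in OGD (SD, n = 3). The neuron marker list fell with a median of -2.63, so the fall of Tfrc was smaller than that of the typical neuron marker, and the difference between them was not tested.

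Slc40a1 (ENSRNOG00000003872), ferroportin, which exports iron from cells, was the scarcest of the 8, at 0.23, 0.16 and 0.32 FPKM in control. It stood at 0.81, 0.99 and 1.35 FPKM in OGD and at 0.70, 0.95 and 0.88 FPKM with Wnt3a and Rspondin 1. These levels rest on 15, 8 and 26 reads in control, 38, 71 and 69 reads in OGD and 45, 52 and 47 reads with Wnt3a and Rspondin 1. Each OGD library exceeded each control library, and the rise was 4.03-fold (adjusted p = 3.08e-05) with the widest error of the 8. The second identifier (ENSRNOG00000049995) had 0 to 13 reads per library and was too low to test. Summing both identifiers, a choice made after the data were seen, gave a change of 1.84 ± 0.26.

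Cp (ENSRNOG00000011913), ceruloplasmin, which oxidises the iron that ferroportin releases, stood at 7.17, 8.34 and 9.59 FPKM in control and 27.35, 38.18 and 39.64 FPKM in OGD. With Wnt3a and Rspondin 1 it stood at 34.35, 45.90 and 45.97 FPKM. The lowest OGD library was far above the highest control library, and the rise was 3.98-fold (adjusted p = 2.19e-07). Cp and Slc40a1 both rose after OGD, and the Cp to Slc40a1 ratio was 37.8 ± 12.5 in control and 33.9 ± 4.6 in OGD, with overlapping libraries (exact two-sided permutation test, p = 0.8).

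**Figure D2:**
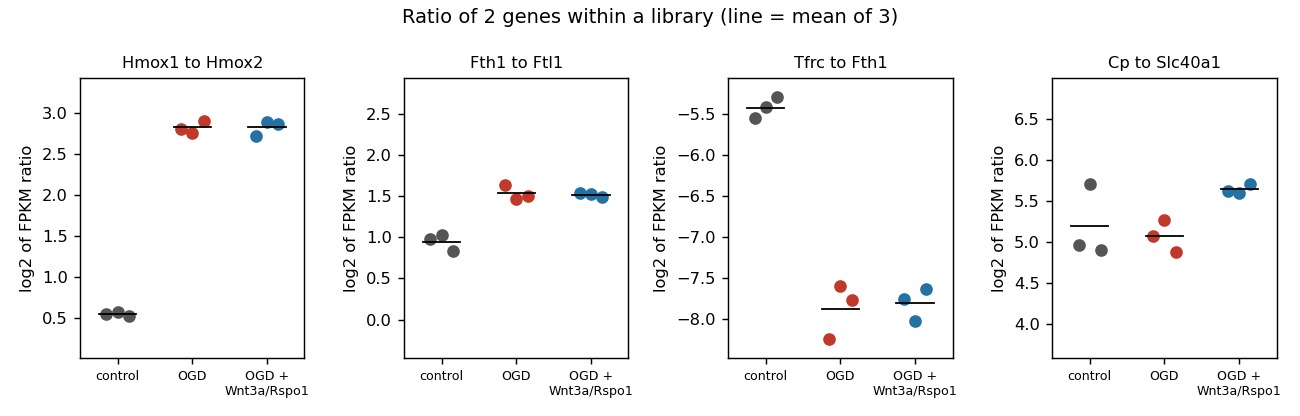
Log2 of the ratio of FPKM values of 2 genes in each library (vertical axis, the same span in each panel), for control, OGD and OGD with Wnt3a and Rspondin 1. Points are libraries and lines are means of 3; the first 3 ratios differ between control and both OGD groups without overlap, and the Cp to Slc40a1 ratio overlaps between control and OGD.

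With Wnt3a and Rspondin 1 the 8 genes stood near their OGD levels. None of the 8 passed the test (adjusted p of 0.976 to 1), none had an unadjusted p under 0.05 in this fit, and none was called by DESeq2 or by limma on log2 FPKM, where 0.197% of all genes were called by edgeR. The 95% intervals give the size of change these libraries allow. For Hmox1 the log2 change from OGD was -0.09 with an interval of -0.23 to 0.04, for Fth1 it was -0.06 (-0.22 to 0.10) and for Ftl1 -0.04 (-0.20 to 0.12). For Hmox2 it was -0.10 (-0.26 to 0.07). The intervals of these 4 genes, which are well covered by reads and close between replicates, all lay between -0.26 and 0.12.

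The intervals were wider for the other 4 genes. Blvrb changed by -0.15 (-0.39 to 0.08), and Tfrc by -0.00 (-0.25 to 0.24). Cp had the one positive value, 0.24 (-0.08 to 0.57), and Slc40a1 the widest interval, -0.35 (-0.89 to 0.20). Single libraries moved these values: Cp was at 0.10 without OGD replicate 1 and 0.37 without replicate 1 of the Wnt3a group, Blvrb at -0.03 without OGD replicate 1 and Slc40a1 at -0.15 without OGD replicate 3. Hmox1 was the 1 gene of the 8 whose TMM-scaled libraries did not overlap between OGD and OGD with Wnt3a and Rspondin 1, being lower in the latter, where 9.57% of all genes did not overlap, and its FPKM values did overlap. The Cp to Slc40a1 ratio was 49.1, 48.3 and 52.2 with Wnt3a and Rspondin 1 against 33.8, 38.6 and 29.4 in OGD. By the difference of mean log2 ratios that is 1.48-fold higher without overlap (exact two-sided permutation test, p = 0.1, the smallest possible, 0.2 adjusted), on an Slc40a1 level of 38 to 71 reads. The other 3 ratios overlapped between these groups (p = 0.8 to 1, exact permutation test). Of the marker lists, 0 of 12 neuron markers and 1 of 11 astrocyte markers (Gja1, 0.38 ± 0.06, adjusted p = 0.0404 in edgeR) were called. No astrocyte marker was called with RLE in place of TMM scaling or without OGD replicate 3. With Wnt3a and Rspondin 1 the sums of the neuron and astrocyte markers were 512 to 661 FPKM and 6335 to 6635 FPKM.

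**Figure D3:**
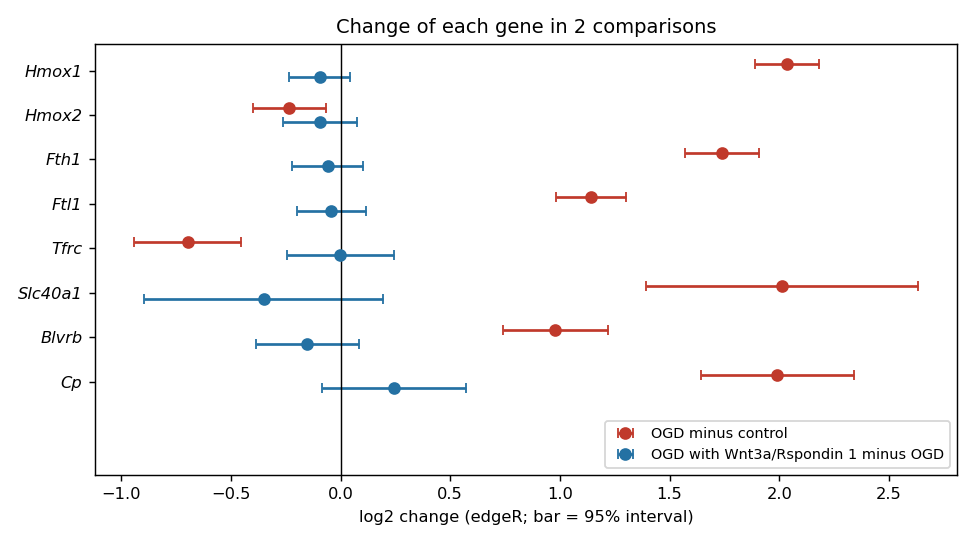
Log2 change of each of the 8 genes (horizontal axis) in OGD against control (red) and in OGD with Wnt3a and Rspondin 1 against OGD (blue), with 95% intervals from edgeR. The red intervals all exclude 0, and the blue intervals all include it.

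Against the untreated cells, the Wnt3a group shares its control libraries with the OGD comparison, and its values are given for comparison. There 8 of the 8 genes passed, where 72.6% of all genes did, with 6 higher (36.6% of all genes) and 2 lower (36% of all genes). Hmox1 was higher by 1.94 ± 0.07, Fth1 by 1.68 ± 0.08, Ftl1 by 1.10 ± 0.07, Blvrb by 0.83 ± 0.11, Slc40a1 by 1.66 ± 0.29 and Cp by 2.23 ± 0.16. Hmox2 changed by -0.33 ± 0.08 and Tfrc by -0.70 ± 0.11.

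The pathways around the 8 genes were read from lists of 99 further genes with a row in the tables, of which 87 could be tested. In OGD against control 50 of them were higher, 16 lower and 21 not past the test, with a median of 0.38 against 0.02 over all genes. Of all tested genes 36.3% were higher and 36.8% lower, and the counts of each list below stand beside these shares. The lists too were chosen with earlier results of these data known, so their counts do not measure an excess. No gene stands in more than 1 of these lists. Cd163 and Alas2 also stand in the marker lists of macrophages and erythroid cells, and neither could be tested. All lists were read from the same libraries, so they are not independent of each other or of the marker lists.

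Haem synthesis genes were mostly higher after OGD: 9 of 12 tested rose, 1 fell and 2 were not past the test, with a median of 0.68. Urod, uroporphyrinogen decarboxylase, went from 15.9 ± 1.6 to 43.1 ± 2.5 FPKM (SD, n = 3), a change of 1.35 ± 0.09. Fech, which inserts iron into the porphyrin, rose by 1.03 ± 0.07. The 1 gene that fell was Slc25a38, the mitochondrial glycine carrier, with a change of -0.59 ± 0.11; it was named because it was the single gene that fell. Among other genes of haem breakdown, transport and sensing, 8 of 14 rose and none fell. These included Slc48a1, a lysosomal haem transporter, at 67.9 ± 3.0 FPKM in control and 161 ± 9 FPKM in OGD, and the haem-binding nuclear receptors Nr1d1 (1.35 ± 0.09) and Nr1d2 (0.92 ± 0.11).

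Of 12 tested iron import genes other than Tfrc, 7 rose, 2 fell and 3 were not past the test, and 5 to 7 were called higher across the alternatives. Cybrd1, a ferric reductase, went from 1.38 ± 0.12 to 8.04 ± 0.39 FPKM, a change of 2.45 ± 0.11. Tf, transferrin itself, went from 57.1 ± 2.1 to 219 ± 3 FPKM, a change of 1.76 ± 0.08, and Steap3, the endosomal ferrireductase, rose by 1.32 ± 0.14. Both tested partners of iron export other than the members changed. Heph, hephaestin, a membrane ferroxidase related to ceruloplasmin, rose by 1.99 ± 0.19 from a low 0.373 ± 0.075 FPKM. App, the amyloid precursor protein, reported to stabilise ferroportin, fell by 0.41 on the log2 scale (SE 0.08). Hamp, the ferroportin ligand hepcidin, had 0 reads.

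Of the 5 other genes of iron storage and its turnover 2 rose, 2 fell and 1 was not past the test. Ncoa4, the receptor that carries ferritin to lysosomes, rose by 0.38 ± 0.07, and the iron chaperone Pcbp3 and the ubiquitin ligase Herc2 changed by -0.87 ± 0.10 and -0.79 ± 0.10. In the list of iron sensing and hepcidin control 4 of 8 rose and 2 fell. Bmp6, an inducer of hepcidin, rose by 2.10 ± 0.17 from 1.97 ± 0.07 FPKM. The iron regulatory protein gene Aco1 rose by 0.43 ± 0.06, and Neo1, a haemojuvelin receptor, changed by -0.31 ± 0.07. Mitochondrial iron and iron-sulfur cluster genes rose in 14 of 23 cases and fell in 3, with a median of 0.44. The scaffold Iscu rose by 1.01 ± 0.08, the late-acting factor Iba57 by 1.31 ± 0.13 and the chaperone Hspa9 by 0.70 ± 0.07.

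Genes of ferroptosis, an iron-dependent death by lipid peroxidation, had 5 of 11 higher and 5 lower, a split near that of all genes (36.3% higher and 36.8% lower). The median of -0.46 depended on single libraries, at -0.06 without control replicate 2 and -0.24 without OGD replicate 1. Slc3a2, the heavy subunit of the cystine importer, rose by 1.31 ± 0.07. Acsl4, which loads membranes with oxidisable fatty acids, went from 22.4 ± 2.3 to 3.82 ± 1.34 FPKM, a change of -2.63 ± 0.21, beside a median of -2.63 for the neuron markers. Lpcat3, a lysophospholipid acyltransferase of the same route, rose by 0.55 ± 0.08.

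**Figure D4:**
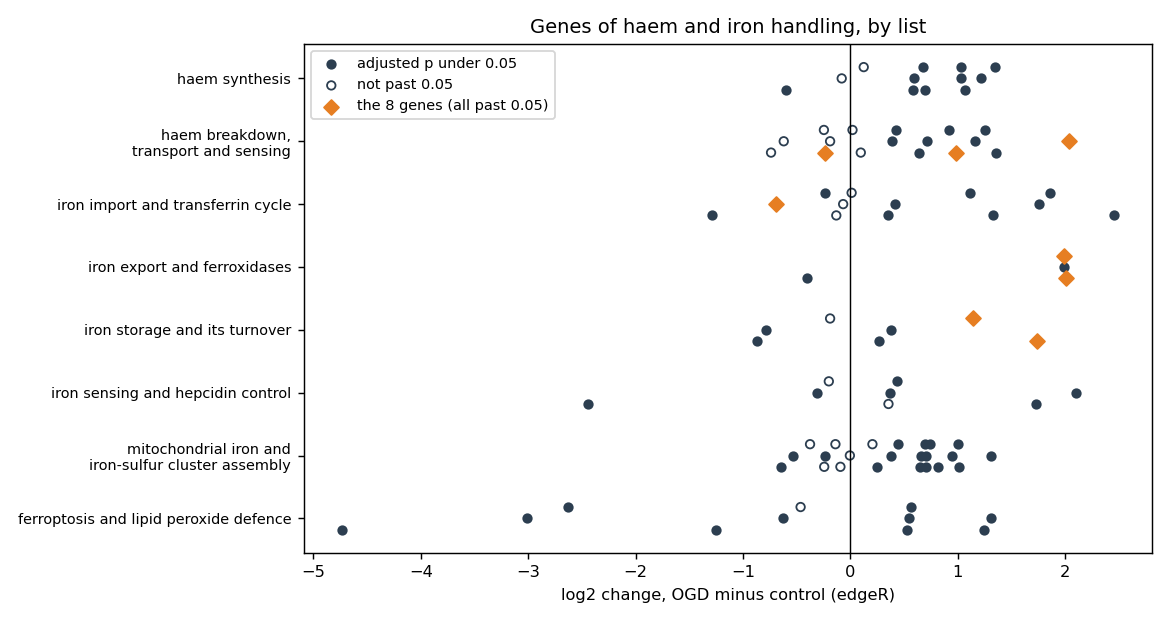
Log2 change in OGD against control (horizontal axis) of every tested gene in 8 lists of haem and iron handling, with orange diamonds for the 8 genes. Filled circles passed an adjusted p of 0.05 in edgeR and open circles did not; haem synthesis genes lie mostly to the right of 0 and ferroptosis genes on both sides.

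Of the 87 list genes, edgeR called none in OGD with Wnt3a and Rspondin 1 against OGD, where it called 27 of all 13693 genes. An unadjusted p under 0.05 in edgeR was reached by 5 of the 87, beside 784 of all 13693 genes. Limma called none of the 87, beside 32 of all genes on log2(FPKM + 1) and 26 on log2(FPKM + 0.1). DESeq2 called 3 of the 87, beside 101 of all 13693 genes. Those 3, named after their values were seen, were Cybrd1, Slc7a11 and Mtf1. Cybrd1 was at 5.78 ± 0.09 FPKM with Wnt3a and Rspondin 1, a change from OGD of -0.50 ± 0.10 (adjusted p = 0.0657 in edgeR). Slc7a11, the transport subunit of the cystine importer, was at 30.2 ± 2.6 against 14.6 ± 3.9 FPKM, a change of 1.02 ± 0.18 (adjusted p = 0.0657 in edgeR). Mtf1, the metal-sensing transcription factor, was at 1.05 ± 0.48 against 2.17 ± 0.32 FPKM, a change of -1.05 ± 0.28 (adjusted p = 0.308 in edgeR).

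The genes with the profile most like each member were found over the 9 libraries, among 11519 genes, by the root mean square difference of centred log2 values. Hmox1 lay nearest to Acot2 (0.064), Cpt1a and Retsat, Fth1 to Slc39a1 (0.043), Etfb and Fkbp10, and Ftl1 had Gemin8 (0.050) and Mdfic among its nearest. Acot2 and Cpt1a encode a mitochondrial thioesterase and the carnitine palmitoyltransferase of fatty acid oxidation, and Slc39a1 a zinc importer. Blvrb had Coro1b (0.051) and Mrps7 among its nearest, Tfrc lay nearest to Uhmk1 (0.058), Selenoi and Rab6a, and Hmox2 to Exosc10 (0.033), Galnt2 and Eif3c. Cp lay nearest to Txlnb (0.091), Gabrg1 and Cyp7b1. Slc40a1 lay farther from its neighbours, with 0.206 for Rnf125, 0.208 for Lims2 and 0.215 for Lcn2, a siderophore-binding protein of the iron import list. All these profiles come from the same 9 libraries.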

How the data were processed

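Per the labels' protocols, sequencing libraries were built from total RNA with a TruSeq kit. The authors deposited read counts per gene, FPKM, and tables of their own comparisons with log2 fold changes and p-values, per the file headers. Bowtie 0.12.2 and the builds mm8 and mm9, both of mouse, appear in the submitters' processing notes, but the gene identifiers are those of rat in Ensembl. The rat build, the counter and the use of strand are not given in the sources used here. Reads of a gene and of one overlapping it or antisense to it therefore cannot be told apart.

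Deposited counts of the 9 libraries (14285914 to 25048521 per library) were fitted together in edgeR 4.0.16 (R 4.3.3) with TMM scaling, filterByExpr (minimum count 10) and the quasi-likelihood test. Of 22050 identifiers 17332 had a read and 13693 were tested, at an adjusted p of 0.05, and the common biological coefficient of variation was 10.31%. Code was tested on simulated data. Ratios of FPKM within a library were compared by exact permutation tests. Alternatives were other scaling, no filter, DESeq2 1.42.0, limma 3.58.1 on log2(FPKM + 1) and log2(FPKM + 0.1), 6 libraries, a replicate block and leaving out each library.

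The 8 genes and all lists were chosen with earlier results of these data known. Named from each list were up to 3 genes of smallest adjusted p in OGD against control that reached 1 FPKM in the mean of a group, and for each member the 3 nearest profiles; 3 of the genes so chosen are not reported here. The remaining marker lists were endothelium (2 higher and 1 lower of 3 tested after OGD, with Cldn5 at 0 reads), erythroid cells (1 higher and 1 lower of 4) and choroid plexus (1 higher of 3).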

Additional observations from a re-analysis of the deposited data

How the results depend on the processing

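Under every alternative run, 7 of the 8 genes kept their direction and call in OGD against control, and all 8 did in OGD with Wnt3a and Rspondin 1 against control. The exception was Hmox2 in OGD against control. Its change was -0.15 (adjusted p = 0.0884) with library totals, -0.14 (0.0594) by limma on log2(FPKM + 1), -0.15 (0.0593) on log2(FPKM + 0.1), and -0.25 to -0.20 when 1 library was left out, with the call lost without control replicate 2 or OGD replicate 3. The number of genes called lower was then 1 in place of 2 under these 5 alternatives, a range of 1 to 2 over left-out libraries. Library totals moved the median of all genes by 0.085 in OGD against control and by 0.106 in OGD with Wnt3a and Rspondin 1 against control. In OGD with Wnt3a and Rspondin 1 against OGD, no gene of the 8 was called under any alternative, and the lowest adjusted p was 0.232, for Cp with the replicate block. Cp had an unadjusted p under 0.05 with that block (change 0.25, SE 0.068) and without Wnt3a replicate 1 (0.37, SE 0.15). The change of Tfrc there, near 0, took the opposite sign at 0.017 with library totals, 0.0031 with 6 libraries, 0.031 and 0.032 by limma on log2(FPKM + 1) and log2(FPKM + 0.1), 0.0084 with the replicate block, and ranged from -0.13 to 0.11 over left-out libraries (0.11 without OGD replicate 2, 0.017 without OGD replicate 3, 0.054 without Wnt3a replicate 2). The log2 ratio of Hmox1 to Hmox2 ranged from -0.03 to 0.054 (-0.028 and -0.017 without Wnt3a replicates 2 and 3, -0.0054 and -0.03 without OGD replicates 1 and 2). Fth1 to Ftl1 ranged from -0.0497 to 0.034 (0.034 without OGD replicate 1). Tfrc to Fth1 ranged from -0.11 to 0.21 (-0.014 without Wnt3a replicate 3, -0.11 without OGD replicate 1). Cp to Slc40a1 in OGD against control ranged from -0.26 to 0.14 (0.14 without control replicate 2). The cause was not tested. Genes called in OGD with Wnt3a and Rspondin 1 against OGD numbered 27 with edgeR, 101 with DESeq2 (61 higher, 40 lower, against 24 and 3), 65 with the replicate block, 15 with 6 libraries, 49 and 13 without OGD replicates 1 and 2, and 12 and 17 without Wnt3a replicates 2 and 3. The main fit used no pairing by replicate number. Deviations of same-numbered libraries correlated at 0.27, -0.05 and 0.11 between control and OGD. The highest value between those groups, 0.28, was that of control replicate 3 with OGD replicate 2. Same-numbered libraries of control and of OGD with Wnt3a and Rspondin 1 correlated at 0.07, -0.07 and 0.003. Between OGD and OGD with Wnt3a and Rspondin 1 the same-numbered libraries correlated at 0.23, 0.07 and 0.27. There, and not in the pairs of groups with control, every library correlated best with its own number, a hint of pairing from the data that was not tested. The block called 1 list gene higher (Slc7a11) and 2 lower (Cybrd1, Mtf1) in that comparison, and without OGD replicate 1 Slc7a11 alone was called higher. Depth limits Slc40a1 most, with 8 to 26 reads per control library.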
